A study of Mus musculus with 45 samples.

Results

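The transcription factor p53 is kept at a low level in unstressed cells, chiefly by the ubiquitin ligase Mdm2, and accumulates after DNA damage, nucleotide imbalance or disturbed ribosome production. It then activates genes that stop the cell cycle, start apoptosis or restrain p53 itself, and in the embryonic cortex its activation is known to remove neural progenitors. The 10 genes described here are targets of p53: Mdm2 in the feedback loop, Cdkn1a and Ccng1 of the cell cycle, Bbc3, Pmaip1 and Perp of apoptosis, Eda2r and Phlda3 of receptor and Akt signalling, and Trp53inp1 and Zmat3, a cofactor of p53 and an RNA-binding protein. They were taken by name, and all 10 were found among the 53491 genes of the series.

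The libraries were made by SLAM-seq, in which cells take up 4-thiouridine (4sU), alkylation of the RNA makes each incorporated 4sU read as C in place of T, and the share of converted Ts measures labelled RNA. All 45 libraries came from primary cortical cells of WT mouse embryos at E11.5, E14.5 or E16.5, with no strain stated in the sources used here. Every culture received 100 uM 4sU for 20 h in neural progenitor medium with bFGF and then 5 mM uridine, and was lysed after 0, 2, 4, 8 or 12 h of this chase. Each stage had 3 biological replicates, here called pools A, B and C, each from the cortices of 7 embryos at E11.5 or 2 embryos at the later stages and divided over 5 wells, so that the 15 groups hold 3 libraries each. All cells were dissociated with trypsin, for longer at later stages, and all were labelled and cultured. The stages can therefore be compared for the level of p53 target RNA under the same labelling and culture, whereas the effect of 4sU or of culture itself cannot be measured, since no unlabelled or uncultured cells were analysed here. In bulk RNA, fewer cells that express a gene and less RNA per cell cannot be told apart.

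Depth was 15.9 to 43.9 M recovered reads per library. Perp was counted with 15 to 304 reads per library and Pmaip1 with 21 to 186, whereas the other 8 genes had at least 140 reads in every library. The cell makeup moved with stage: the summed level at 0 h of 10 progenitor markers was 10455 to 10896 counts per 1e6 reads (CPM) at E11.5, 4259 to 4975 in the E14.5 pools and 1751 to 1936 in the E16.5 pools, and that of 10 neuron markers was 3112 to 3704, 6259 to 7066 and 8625 to 8980 CPM. Vim was the largest part of the progenitor sum at each stage, and most of that sum at E11.5. Not every marker moved with its sum. Slc1a3 of the progenitor list was lowest at E11.5 in all pools. Neurod6, Bcl11b and Snap25 of the neuron list had their highest means at E14.5. The 8 markers of meningeal fibroblasts and mural cells summed to 480 to 731 CPM in the E11.5 pools and to at most 38.7 CPM later, although Dcn among them was lowest at E11.5 (means of 2.72, 8.20 and 5.45 CPM). The 8 erythroid markers summed to 1568 to 3379 CPM in the E11.5 pools and at most 208 CPM later. Endothelial and microglial markers, 8 each, summed to at most 6.22 and 15.5 CPM in any library, and no marker of these lists was at 0 in all libraries of a stage. The part of these differences in the results below was not tested. Pool C of E11.5 stood apart most for these genes: it had the highest level of 9 of the 10 targets at 0 h among the pools of its stage, together with a library conversion rate of 1.44% against 1.09% and 1.01% in pools A and B and the highest erythroid sum. Pool B of E16.5 was likewise highest for 9 of the 10 at 0 h, with a median log2 ratio to the other pools over the 5 wells of 0.21, beside 0.58 in pool C of E11.5. The share of all genes that were highest in these pools is not given here. Stage differences of the 10 genes and list counts that involve E11.5 are also given without its pool C.

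Sequences that resemble p53 elements lie close to the start sites of some of these genes. p53 binds as a tetramer to a pair of half-sites, and windows of 300 bases around RefSeq start sites (250 before, 50 after; GRCm38.p6) were available for 6 of the 10 genes, 9 windows in all. Elements were sought on both strands as adjacent half-sites without a spacer, with the first C and the last G of both half-site cores in place and at most 3 mismatches in 20 bases, a rule set after such sites had been looked at. Of these 6 genes, 3 held one, printed below 5′ to 3′ on the strand of the gene with the element in capitals and 10 flanking bases, to show how they differ in closeness to the p53 consensus.
Cdkn1a: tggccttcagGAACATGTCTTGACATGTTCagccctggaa
Ccng1: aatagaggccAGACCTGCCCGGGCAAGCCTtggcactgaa
Bbc3: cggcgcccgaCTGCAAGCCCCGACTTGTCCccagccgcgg
The Cdkn1a sequence (chr17:29090918-29090957, plus strand) had 1 mismatch, and its element began 51 bases before 1 of 2 RefSeq start sites; the window of the other held none. That of Ccng1 (chr11:40755452-40755491, minus strand) also had 1 mismatch and began 195 bases before its start site, and that of Bbc3 (chr7:16309476-16309515, plus strand) had 3 mismatches and began 97 bases before 1 of 3 start sites, with none in the windows of the others. Of 32851 windows of this length, 1.38% held an element with at most 3 mismatches, 0.067% one with at most 1, and 8.36% an exact half-site. The windows of Mdm2, Phlda3 and Eda2r held no element, although that of Mdm2 held an exact half-site. A match is a description of the letters and not evidence of binding here. Windows were not analysed here for Pmaip1, Trp53inp1, Zmat3 and Perp.

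At the end of labelling (0 h), most of these genes had their highest RNA level at E11.5 and several had their lowest at E16.5, with Bbc3 as an exception in the opposite direction. Of the 10 genes, 5 fell and 0 rose at E14.5 relative to E11.5 by edgeR's quasi-likelihood test (adjusted p under 0.05 over 18408 genes), where 48.6% of all genes were called and 23.5% were called lower. Between E14.5 and E16.5, 2 were higher and 2 lower, where 49.5% of all genes were called and 25.4% lower. Between E11.5 and E16.5, 5 were lower and 1 higher, where 64.4% were called and 33.1% lower. Differences beyond 2-fold were called for 2, 2 and 3 of the 10, beside 16.1%, 13.1% and 29.3% of all genes, and for 0, 2 and 1 without pool C of E11.5. At 0 h the share of members called was thus close to the background in each comparison. The members' median log2 differences were -0.36, -0.16 and -0.67, beside -0.0069, -0.0018 and -0.041 over all genes. Without pool C of E11.5 those medians were -0.09, -0.17 and -0.34, and 2 and 5 members were called in the comparisons with E11.5. At E14.5 relative to E11.5, 2 members were called without pool A of E14.5 (Ccng1 and Pmaip1, both lower) and 3 without pool C of E14.5 (Pmaip1 lower, Mdm2 and Bbc3 higher). In the 12 h libraries 2, 9 and 9 members were called in the 3 comparisons, where 52%, 49.9% and 64.9% of all genes were.

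**Figure D1:**
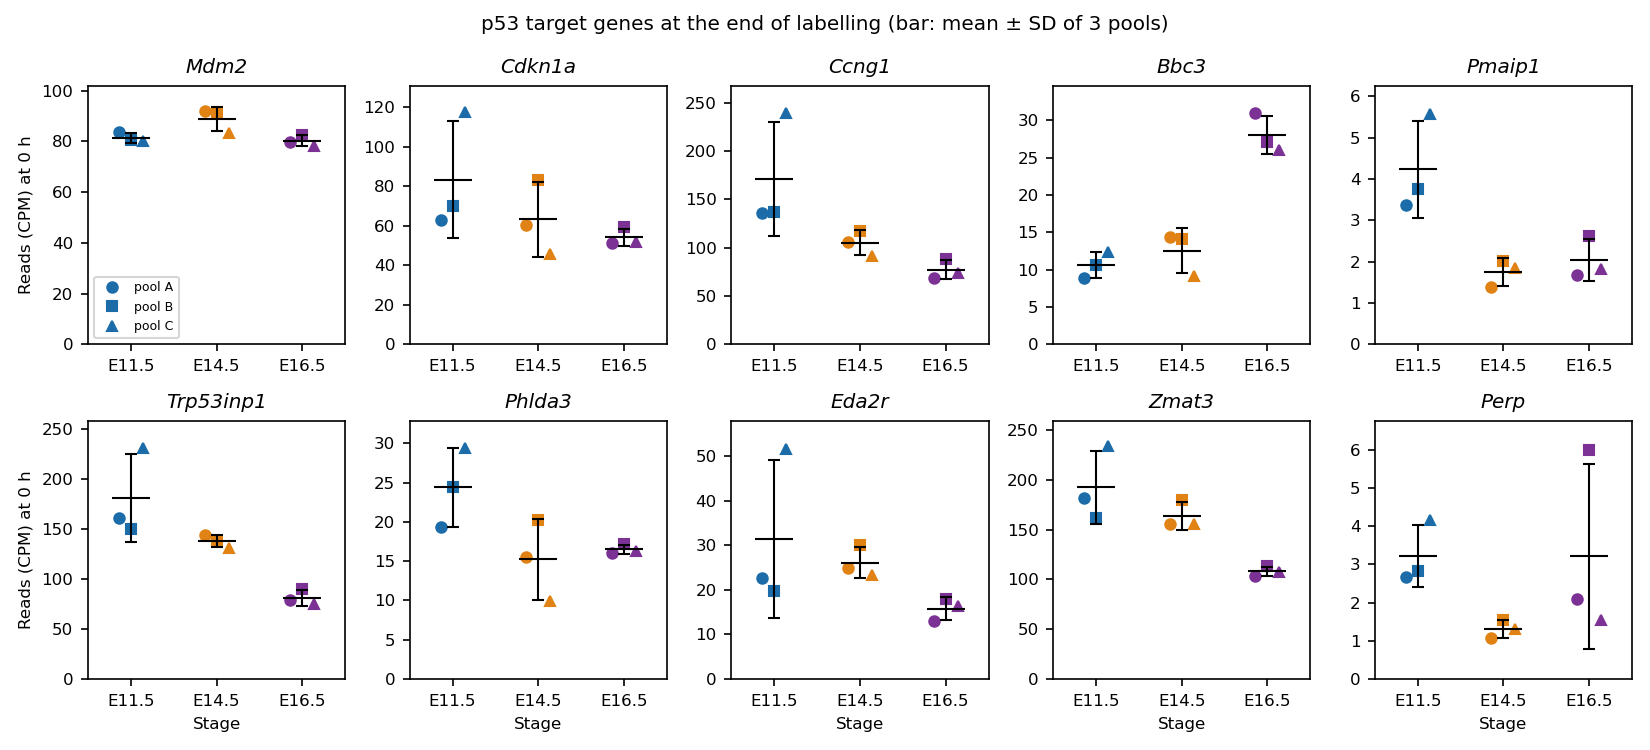
Level (reads in CPM, linear axis from 0) of the 10 p53 target genes at the end of labelling in the 3 pools of each stage; symbols are pools A, B and C, and bars show mean ± SD (n = 3). Mdm2 sits between 78.4 and 91.9 CPM in all 9 pools, Bbc3 is highest in the 3 E16.5 pools, and pool C of E11.5 lies above pools A and B for 9 of the 10 genes.

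Mdm2 (chr10:117688875-117710758 on GRCm38, minus strand), whose product ubiquitinates p53 and whose own transcription p53 drives, varied little at 0 h. It measured 83.8, 80.7 and 80.0 CPM in pools A, B and C at E11.5, 91.9, 91.2 and 83.3 CPM in the E14.5 pools, and 79.8, 82.5 and 78.4 CPM in the E16.5 pools. The E11.5 pools overlapped those of both later stages, the E14.5 pools lay above the E16.5 pools, and all 9 pools were within a narrow band. The log2 differences were 0.16 ± 0.06 at E14.5 relative to E11.5 (SE; adjusted p = 0.054), -0.13 at E16.5 relative to E14.5 (adjusted p = 0.12) and 0.04 at E16.5 relative to E11.5 (adjusted p = 0.66).

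Of the cell cycle genes, Ccng1 fell after E11.5 and Cdkn1a did not pass the test. Ccng1 (chr11:40748552-40755311, minus strand) encodes cyclin G1, which brings a phosphatase to Mdm2. Its level was 136, 137 and 239 CPM in the E11.5 pools, 106, 118 and 91.7 CPM in the E14.5 pools, and 69.0, 88.4 and 74.1 CPM in the E16.5 pools. Every E11.5 pool was above every later pool, and the E14.5 pools were all above the E16.5 pools. Ccng1 fell by 0.67 ± 0.19 on the log2 scale at E14.5 relative to E11.5 (SE; adjusted p = 0.010) and by 1.09 ± 0.19 at E16.5 relative to E11.5 (adjusted p = 0.00023), and without pool C of E11.5 by 0.35 (adjusted p = 0.029) and 0.77 (adjusted p = 9.4e-05). Between E14.5 and E16.5 its difference of -0.42 missed the test (adjusted p = 0.085) and passed without that pool (adjusted p = 0.0054), since the pools share 1 estimate of the spread. Cdkn1a (chr17:29090976-29100727, plus strand) encodes p21, an inhibitor of cyclin-dependent kinases. It was at 62.7, 69.8 and 117 CPM in the E11.5 pools, 60.4, 83.1 and 45.9 CPM in the E14.5 pools and 51.3, 59.2 and 51.8 CPM in the E16.5 pools. The E16.5 pools were all below the E11.5 pools, but the E14.5 pools spanned the E16.5 range and overlapped the lower part of the E11.5 range. The difference between E11.5 and E16.5 (-0.55 ± 0.23, adjusted p = 0.054) missed the test, also without pool C of E11.5 (-0.23, adjusted p = 0.32). It was called without pool A or B of E11.5 and without pool B or C of E14.5. It was also called in the 12 h libraries and with the wells of each pool summed. Without pool A of E14.5 or any pool of E16.5 it was not called, so the result lies near the limit of the test. Cdkn1a shares 273 exonic bases with AC167363.2, an unclassified transcript on the other strand, and whether strand was used in counting is not given in the sources used here.

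The apoptosis genes did not move together. Bbc3 (chr7:16308393-16318205, plus strand) encodes PUMA, a BH3-only protein that releases Bax and Bak from their inhibitors. Its level was 8.9, 10.6 and 12.4 CPM in the E11.5 pools, 14.4, 14.1 and 9.2 CPM in the E14.5 pools, and 30.9, 27.2 and 26.0 CPM in the E16.5 pools. All E16.5 pools were above all earlier pools, while the pools of E11.5 and E14.5 overlapped. Bbc3 rose by 1.19 ± 0.17 on the log2 scale at E16.5 relative to E14.5 (SE; adjusted p = 9.6e-05) and by 1.44 ± 0.18 at E16.5 relative to E11.5 (adjusted p = 8.9e-06), and by 1.58 (adjusted p = 1.1e-05) in the latter without pool C of E11.5. Pmaip1, on chromosome 18, encodes NOXA, another BH3-only protein, which binds Mcl1. It was at 3.4, 3.8 and 5.6 CPM in the E11.5 pools, 1.4, 2.0 and 1.9 CPM in the E14.5 pools and 1.7, 2.6 and 1.8 CPM in the E16.5 pools. The E11.5 pools were above all others and the later stages overlapped. Pmaip1 fell by 1.21 ± 0.24 at E14.5 relative to E11.5 (adjusted p = 0.0011) and by 0.96 ± 0.24 at E16.5 relative to E11.5 (adjusted p = 0.0036), and without pool C by 0.92 (adjusted p = 0.0048) and 0.68 (adjusted p = 0.019). Perp (chr10:18845020-18857073, plus strand) encodes a membrane protein that takes part in p53-dependent apoptosis and in desmosomes. It was at 2.7, 2.8 and 4.2 CPM in the E11.5 pools, 1.1, 1.6 and 1.3 CPM in the E14.5 pools, and 2.1, 6.0 and 1.5 CPM in the E16.5 pools. One pool, B of E16.5, was far above the other pools of its stage, and the same pool had the highest summed level of meningeal fibroblast and mural markers of its stage (38.7 CPM against 22.3 and 17.9 CPM in pools A and C); their part in the Perp level was not tested. Perp fell by 1.26 ± 0.40 at E14.5 relative to E11.5 (adjusted p = 0.021; -1.03, adjusted p = 0.072 without pool C of E11.5) and rose by 1.37 ± 0.40 at E16.5 relative to E14.5 (adjusted p = 0.013). Without pool B of E16.5 that rise was 0.55 and missed the test (adjusted p = 0.097), and the difference between E11.5 and E16.5 turned from 0.11 (adjusted p = 0.82) to -0.70 (adjusted p = 0.033).

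Of the receptor and signalling genes, each was lower than at E11.5 in 1 comparison, and neither call held without pool C of E11.5. Eda2r (chrX:97333840-97377216, minus strand) encodes a receptor of the TNF receptor family for ectodysplasin A2. It measured 22.7, 19.8 and 51.7 CPM in the E11.5 pools, 24.96, 30.04 and 23.3 CPM in the E14.5 pools, and 12.98, 17.9 and 16.48 CPM in the E16.5 pools. The E16.5 pools were below all earlier pools, and pool C of E11.5 was above all others. The difference at E16.5 relative to E11.5 was -0.92 ± 0.30 (adjusted p = 0.015) and -0.33 (adjusted p = 0.070) without pool C, whereas that at E16.5 relative to E14.5 was -0.68 (adjusted p = 0.075) and passed without pool C (adjusted p = 0.0012). Phlda3 (chr1:135766119-135769136, plus strand) encodes a small PH-domain protein that competes with Akt for membrane lipids. It measured 19.4, 24.4 and 29.5 CPM in the E11.5 pools, 15.5, 20.3 and 10.0 CPM in the E14.5 pools, and 16.02, 17.1 and 16.3 CPM in the E16.5 pools. The E14.5 pools overlapped both other stages. Phlda3 fell by 0.59 ± 0.22 at E14.5 relative to E11.5 (adjusted p = 0.047), which was no longer called without pool C (-0.39, adjusted p = 0.19), and differed by 0.05 at E16.5 relative to E14.5 (adjusted p = 0.87).

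Trp53inp1 and Zmat3 both fell between E14.5 and E16.5. Trp53inp1 (chr4:11156431-11174379, plus strand) encodes a nuclear cofactor of p53 that also acts in autophagy. It was at 162, 150.1 and 231 CPM in the E11.5 pools, 144, 138 and 132 CPM in the E14.5 pools and 78.8, 90.2 and 74.9 CPM in the E16.5 pools. The pools of the 3 stages did not overlap. Trp53inp1 fell by 0.37 ± 0.14 at E14.5 relative to E11.5 (adjusted p = 0.041), which was not called without pool C (-0.15, adjusted p = 0.20), by 0.73 ± 0.14 at E16.5 relative to E14.5 (adjusted p = 0.00074) and by 1.10 ± 0.14 over both steps (adjusted p = 1.3e-05; 0.89 without pool C). Zmat3 (chr3:32334792-32366014, minus strand) encodes a zinc-finger protein that binds AU-rich RNA. It was at 182, 162 and 233 CPM in the E11.5 pools, 156, 180.1 and 156 CPM in the E14.5 pools and 103, 113 and 107 CPM in the E16.5 pools. The E11.5 and E14.5 pools overlapped and the E16.5 pools were below both. Zmat3 fell by 0.60 ± 0.12 at E16.5 relative to E14.5 (adjusted p = 0.00095) and by 0.78 ± 0.12 at E16.5 relative to E11.5 (adjusted p = 6.4e-05; 0.62, adjusted p = 4.6e-05 without pool C).

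**Figure D2:**
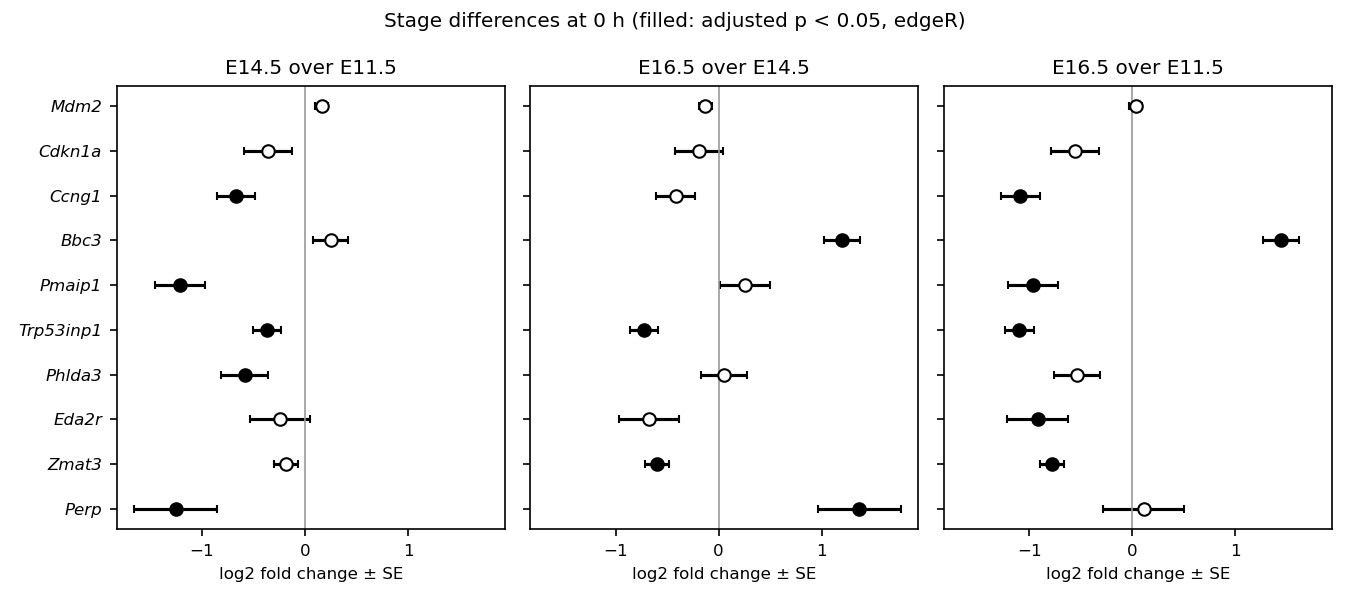
Log2 fold change with its SE between stages at 0 h for the 10 genes, from 1 edgeR fit of 9 libraries; filled points passed an adjusted p under 0.05. Bbc3 stands 1.44 above 0 in the comparison of E16.5 with E11.5, where 5 other genes pass below 0 and Mdm2 lies at 0.04.

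To set the genes beside each other, levels were divided by the exonic length of each gene (CPM per kb). Ccng1 ranked first at every stage, at 48.7 ± 16.8 CPM per kb at E11.5, 29.9 ± 3.70 in the E14.5 pools and 22.0 ± 2.86 in the E16.5 pools (SD, n = 3), and its pools did not overlap those of the gene ranked second. Pmaip1 was last at every stage, at 1.55, 0.64 and 0.75 CPM per kb, and its pools overlapped those of Perp. In between, the order changed with stage. Mdm2 was at 16.04, 17.5 and 15.8 CPM per kb and moved from the fifth to the second place, and Bbc3 was at 5.01, 5.91 and 13.2 and moved from the eighth to the fourth. Trp53inp1, at 28.0, 21.3 and 12.6, moved from the second to the fifth, and Zmat3, at 16.8, 14.3 and 9.44, from the fourth to the seventh. At E16.5 the pools of Mdm2, Cdkn1a, Bbc3 and Trp53inp1, in this order, each overlapped those of the neighbouring gene, so that their places are not separated by the data.

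The gene of p53 itself and its regulators were followed in the same libraries. Trp53 RNA was at 188 ± 3.80 CPM in the E11.5 pools, 167 ± 15.6 in the E14.5 pools and 147 ± 6.27 in the E16.5 pools (SD, n = 3), and fell by 0.28 on the log2 scale at E16.5 relative to E11.5 (adjusted p = 0.0055); the level of the protein was not measured. Mdm4, the partner of Mdm2 that blocks the activation domain of p53, rose from 47.1 ± 6.85 to 75.1 ± 6.0 CPM between E11.5 and E14.5 (log2 difference 0.72, adjusted p = 5.3e-05). Ppm1d, a phosphatase induced by p53 that shuts the damage response off, rose from 37.3 ± 1.65 CPM in the E11.5 pools to 45.5 ± 2.24 CPM in the E16.5 pools (log2 difference 0.38, adjusted p = 0.00061). Of a list of 16 genes, made up of Trp53, its regulators and its relatives Trp63 and Trp73, 15 were tested. Between E11.5 and E16.5, 4 of them rose and 8 fell, with Trp53 among the 8. Over all genes 64.4% were called in that comparison, 33.1% lower, and without pool C of E11.5 4 genes of the list rose and 7 fell. The checkpoint kinases Chek1 (-1.71), Chek2 (-1.24), the p53 relative Trp73 (-1.24) and the Mdm2 inhibitor Cdkn2a (-2.504) were lower by more than 2-fold on that log2 scale. Trp73 was called in all omissions of 1 pool, but its difference was -0.93 without pool C of E11.5 and -0.99 without pool A of E16.5, less than 2-fold. Cdkn2a was counted with 5 to 21 reads per library at E16.5, and for Rpl5 and Rpl11 reads may be shared with processed copies.

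Of 30 further p53 targets, 29 were tested, and in each comparison the number called lower exceeded that called higher. At E14.5 relative to E11.5, 3 were higher and 11 lower (median log2 difference -0.23), at E16.5 relative to E14.5, 5 were higher and 11 lower (median -0.02), and at E16.5 relative to E11.5, 5 were higher and 13 lower (median -0.28). These were 14, 16 and 18 of 29 called, near the 48.6%, 49.5% and 64.4% of all genes. Without pool C of E11.5 the comparisons with that stage gave 4 higher and 8 lower (E14.5) and 6 higher and 12 lower (E16.5). The death receptor Tnfrsf10b fell by 1.14 at the first step and fell by 1.1965 at the second on the log2 scale (adjusted p = 0.00074 and 0.00057). Abhd4, a lipase linked to the death of misplaced neural progenitors, fell by 1.84 at E14.5 relative to E11.5 (adjusted p = 2.5e-08), and the antiproliferative gene Btg2 fell by 1.22 at E16.5 relative to E14.5 (adjusted p = 8.0e-08). Gadd45a, of the DNA damage response, fell by 1.81 at E16.5 relative to E11.5 (adjusted p = 3.4e-06). The leucine sensor Sesn2 first rose by 0.85 (adjusted p = 0.00041) and then fell by 1.17 (adjusted p = 3.6e-05), with a difference of -0.32 over both steps (adjusted p = 0.080). Pidd1, which assembles the caspase-2 platform, fell by 1.00 at E14.5 relative to E11.5 (adjusted p = 7.1e-05). Plk2, which neuronal activity also induces, rose by 1.16 at E14.5 relative to E11.5 (adjusted p = 2.4e-05), and Pltp, a phospholipid transfer protein, fell by 2.90 and then rose by 1.45 (adjusted p = 0.00038 and 0.024), a rise that missed the test without any 1 pool of E14.5 and was 0.33 without pool B of E16.5 (adjusted p = 0.29). Fas passed both steps in the same directions as Pltp, but with 2 to 4 reads per library at E14.5, and each call was lost in some omissions of 1 pool (adjusted p up to 0.076 and 0.10).

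Genes of the integrated stress response, a pathway that runs through Atf4, were counted beside them; Sesn2 stands in both lists. Of its 12 genes, 10 rose and 0 fell between E11.5 and E14.5 (median log2 difference 0.87), and 0 rose and 10 fell between E14.5 and E16.5 (median -1.09), where 48.6% and 49.5% of all genes were called. These counts were the same without pool C of E11.5. Chac1, a glutathione-degrading enzyme, rose by 2.36 and then fell by 1.38 (adjusted p = 2.4e-08 and 3.1e-06), and Atf4 rose by 0.77 and fell by 1.01 (adjusted p = 3.2e-07 and 9.0e-08). For the 10 p53 targets the medians of these steps were -0.36 and -0.16.

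During the chase, under excess uridine for up to 12 h, Mdm2 fell at every stage and 3 further genes fell at E16.5. In this part levels are covered Ts scaled by TMM, because the median gene at E11.5 shifted at 12 h against 0 h on the log2 CPM scale. That shift was -0.18, and 0.03 after TMM. The 12 h libraries of E11.5 also held 29686 to 67623 CPM of Gm42418, a gene that overlaps ribosomal RNA, against 3862 to 9482 CPM at 0 h. The part of Gm42418 in the shift was not tested. At 12 h against 0 h, 1 of 10 genes was called at E11.5, 1 in the E14.5 pools and 4 in the E16.5 pools, where 23%, 15% and 26.2% of all genes were called. The 5 wells of a pool hold the same cells, and with the pool as a block the counts were 2, 6 and 8, where 32.4%, 27.7% and 37% of all genes were called.

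Mdm2 was lower at 12 h in all 9 pools. Its log2 ratio of 12 h to 0 h was -0.23, -0.20 and -0.21 in pools A, B and C of E11.5, -0.40, -0.45 and -0.22 in the E14.5 pools and -0.39, -0.42 and -0.48 in the E16.5 pools. In the fits without the block Mdm2 fell by 0.24 ± 0.05 (adjusted p = 0.0042), 0.35 ± 0.07 (adjusted p = 0.0019) and 0.45 ± 0.05 (adjusted p = 9.6e-06; SE). The call at E11.5 was lost when pool A or pool B was left out (adjusted p up to 0.11) and the call at E14.5 when pool B was (adjusted p = 0.088). At 8 h Mdm2 was already lower at E11.5 (-0.23, adjusted p = 0.0097), E14.5 (-0.35, adjusted p = 0.0061) and E16.5 (-0.33, adjusted p = 0.00023).

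At E16.5 Bbc3 showed the largest fall, with log2 ratios of -0.92, -0.94 and -0.64 in pools A, B and C at 12 h. It fell by 0.85 ± 0.11 (SE; adjusted p = 5.0e-05), and by 0.58 already at 4 h (adjusted p = 0.0026). Cdkn1a had ratios of -0.64, -0.46 and -0.57 and fell by 0.57 ± 0.12 (adjusted p = 0.0023). Zmat3 had ratios of -0.16, -0.20 and -0.15 and fell by 0.19 ± 0.05 (adjusted p = 0.0084). All of these pools moved one way. At E11.5 and E14.5 pools of Cdkn1a moved both ways, between -0.25 and 0.48. With the pool as a block, Trp53inp1 (-0.19, adjusted p = 0.00099), Eda2r (-0.20, adjusted p = 0.021) and Pmaip1 (-0.55, adjusted p = 0.012) were also lower at E16.5 and Ccng1 was higher (0.13, adjusted p = 0.018). The mean log2 ratio of Pmaip1 was -0.53, and -0.33 without pool C, and that of Ccng1 0.15, and 0.10 without pool A.

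At E14.5, 5 genes with a positive mean log2 ratio were called higher at 12 h only with the block. These were Ccng1 (0.36, adjusted p = 0.0017), Eda2r (0.35, adjusted p = 0.0014), Phlda3 (0.43, adjusted p = 0.032), Trp53inp1 (0.19, adjusted p = 0.039) and Zmat3 (0.23, adjusted p = 0.0012), none of which passed without the block (adjusted p from 0.11 to 0.33). The log2 ratios of Phlda3 were 0.07, 0.22 and 1.02 in pools A, B and C, so that their mean of 0.43 was 0.14 without pool C, and the mean of Trp53inp1 was 0.19 and 0.09 without pool B. At E11.5 the block added Perp, which was lower in all 3 pools (-0.60, adjusted p = 0.0023).

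**Figure D3:**
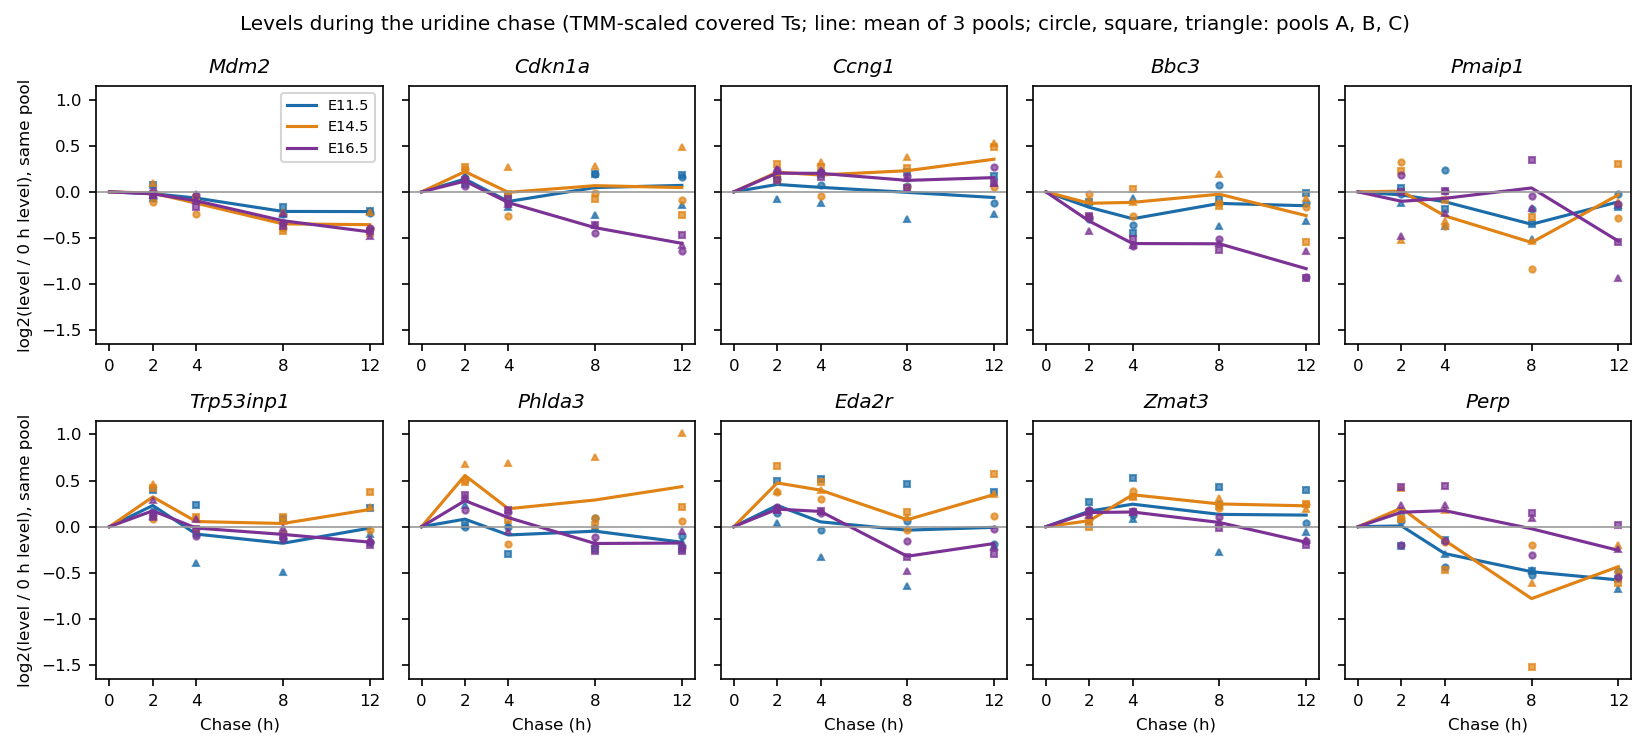
Log2 of the TMM-scaled level at each chase time over that at 0 h in the same pool, against hours of chase, for the 10 genes; points are pools A, B and C (circle, square and triangle) and lines are means of 3 pools per stage. Mdm2 falls at all 3 stages, whereas Cdkn1a and Bbc3 in the E16.5 pools run below their other 2 stages and reach -0.56 and -0.83 at 12 h.

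Whether the change over the chase differed between stages was tested as an interaction over all 45 libraries. Only Mdm2 passed, with a fall larger by 0.22 ± 0.07 at E16.5 than at E11.5 (log2, SE; adjusted p = 0.046), where 8.9% of all genes were called. That call was lost in 6 of the 9 fits that left out 1 pool, namely without any pool of E11.5 or any pool of E16.5 (adjusted p up to 0.17). These fits had no pool block. As a difference of the pools' mean log2 ratios, the value of Mdm2 stayed between -0.24 and -0.19 in all omissions of 1 pool. Without pool C of E11.5 Zmat3 was called in its place (-0.39, adjusted p = 0.044). Between E11.5 and E14.5, 0 members were called by edgeR or DESeq2, where 6.07% of all genes were called. Between E14.5 and E16.5, 0 were called by either tool, where 0.906% were called. An unadjusted p under 0.05 was reached by 0 and 1 members in these 2 comparisons. The share of all genes at that unadjusted limit is not given here. With the pools as a block 2, 6 and 4 members were called (E11.5 to E14.5, E14.5 to E16.5 and E11.5 to E16.5), where 14.2%, 6.33% and 19.3% of all genes were. The blocked differences between E14.5 and E16.5 were -0.61 for Cdkn1a (adjusted p = 0.0055), -0.57 for Bbc3 (adjusted p = 0.028), -0.35 for Trp53inp1 (adjusted p = 0.042), -0.60 for Phlda3 (adjusted p = 0.023), -0.53 for Eda2r (adjusted p = 0.031) and -0.39 for Zmat3 (adjusted p = 0.013). As differences of the pools' mean log2 ratios, those of Cdkn1a and Phlda3 were -0.60 and -0.61 with all pools and -0.39 and -0.32 without pool C of E14.5. Those between E11.5 and E16.5 were -0.22 for Mdm2 (adjusted p = 0.023), -0.63 for Cdkn1a (adjusted p = 0.0012), -0.68 for Bbc3 (adjusted p = 0.0024) and -0.29 for Zmat3 (adjusted p = 0.039).

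The loss of label gave half-lives for 8 of the 10 genes at all 3 stages, and most were shorter than that of the median gene. Half-lives came from exponential fits to the conversion rates of each pool, and the median over all genes was 4.43 h in the E11.5 pools, 4.60 h in the E14.5 pools and 3.48 h in the E16.5 pools. Pmaip1 and Perp passed the filters at E11.5 only, at 5.99 ± 4.15 h and 6.54 ± 3.13 h (SD, n = 3). Mdm2 decayed with half-lives of 3.33, 2.49 and 2.91 h in pools A, B and C of E11.5, 4.45, 3.51 and 3.36 h in the E14.5 pools and 2.14, 1.79 and 2.18 h in the E16.5 pools. All E16.5 pools were below all others, and 10.0%, 27.7% and 9.59% of genes had a shorter half-life at the respective stages. In the E14.5 pools the mean conversion rate of Mdm2 was 1.31% at 0 h, 0.42% at 4 h, 0.32% at 8 h and 0.38% at 12 h. The fitted exponential has no such flat end, which limits the Mdm2 value at E14.5. For Trp53inp1 the values were 3.59, 4.32 and 2.51 h in the E11.5 pools, 2.70, 2.72 and 2.83 h in the E14.5 pools and 1.69, 1.76 and 1.70 h in the E16.5 pools. It moved towards the short end, with 23.1%, 7.22% and 3.56% of genes shorter. Phlda3 was at 5.94, 4.30 and 2.97 h in the E11.5 pools, 2.37, 1.91 and 2.31 h in the E14.5 pools and 1.61, 2.20 and 2.15 h in the E16.5 pools, with 49.2%, 2.02% and 8.36% of genes shorter.

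Among the others, Cdkn1a was near the middle of all genes, at 4.82 ± 0.67 h, 5.18 ± 0.29 h and 3.34 ± 0.48 h at the 3 stages (SD, n = 3), with 59.9%, 63.6% and 46.4% of genes shorter. Its mean conversion rate in the E14.5 pools was also flat late in the chase, at 0.57% at both 8 and 12 h. Ccng1 was at 4.15 ± 0.36 h, 4.15 ± 0.18 h and 3.17 ± 0.34 h, and Zmat3 at 3.63 ± 0.17 h, 3.65 ± 0.37 h and 2.29 ± 0.11 h. Both had nearly the same mean hours at E11.5 and E14.5 and were shorter in each E16.5 pool than in any earlier one. Eda2r was at 3.13 ± 0.65 h, 2.60 ± 0.11 h and 2.32 ± 0.28 h, and Bbc3 at 4.22 ± 2.5 h, 3.63 ± 0.34 h and 2.67 ± 0.51 h, with 7.01 h in pool A of E11.5 against 2.20 and 3.45 h in pools B and C. The Bbc3 value at E11.5 thus rests on widely differing pools with as few as 1374 covered Ts.

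**Figure D4:**
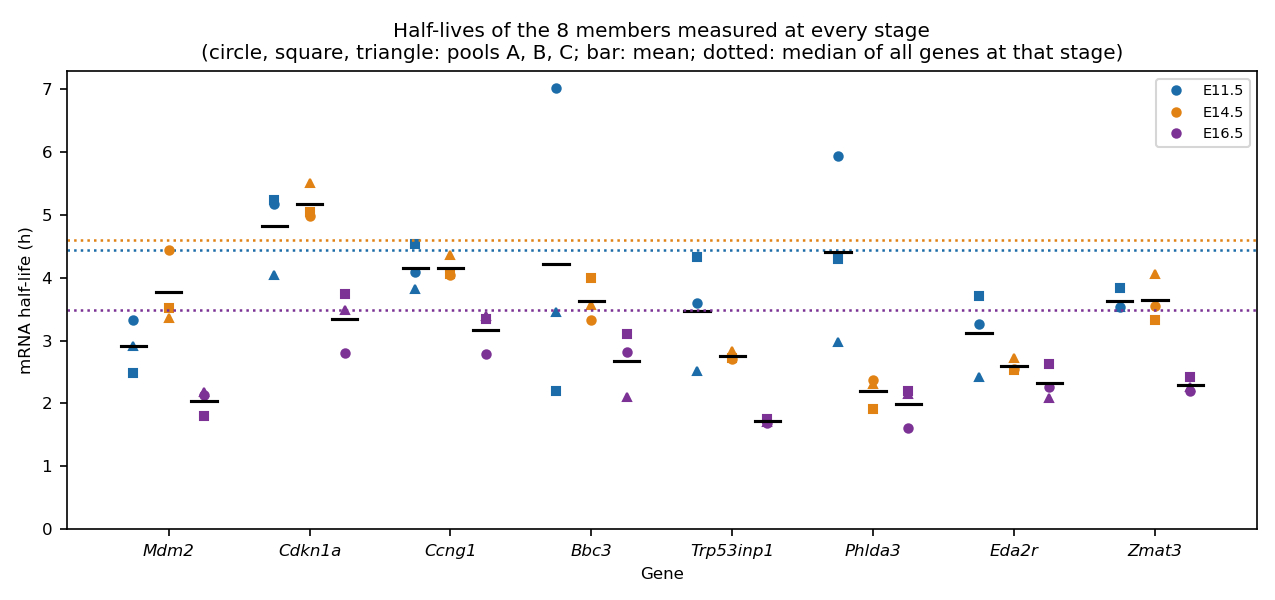
Half-life in hours (linear axis from 0) of the 8 genes measured at every stage; points are pools A, B and C (circle, square and triangle), bars are means of 3 pools and dotted lines are the medians over all genes at each stage. At E16.5 the pools of Trp53inp1 lie between 1.69 and 1.76 h, below the median of 3.48 h, and those of Cdkn1a span it.

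Since the median half-life over all genes was shorter at E16.5, stages were compared after z-scoring within each pool over 9505 genes. By limma 0 of the 8 genes changed (adjusted p under 0.05) over any stage, where 3.15% of all genes did. For the pairs E11.5 to E14.5, E14.5 to E16.5 and E11.5 to E16.5, 0 were called, beside 0.2%, 0.884% and 4.7% of all genes. An unadjusted p under 0.05 was reached by 2 over any stage and by 2, 1 and 3 in the pairs. The share of all genes at that unadjusted limit is not given here, so these counts have no background beside them. The lowest adjusted p was that of Trp53inp1 between E11.5 and E16.5 (0.091; difference -0.53 ± 0.15 SD units), which passed without pool C of E11.5 (-0.69, adjusted p = 0.024). In hours without z-scores, where the general shift is kept, 4 genes were called between E14.5 and E16.5 and 3 between E11.5 and E16.5, where 38.1% and 12.9% of all genes were.

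The 3′ untranslated regions differ in the letters known to speed mRNA decay. The 3′ UTR of each gene was that of its annotated isoform with the longest coding sequence. The AU-rich nonamer TTATTTATT occurred in those of Mdm2 and Trp53inp1, and in 7.02% of 20221 genes. Counted from the shortest mean half-life of the 8 genes, Mdm2 was the first at E11.5, the sixth at E14.5 and the third at E16.5, and Trp53inp1 the third, the third and the first. At each stage their pools overlapped those of a neighbouring gene in this order. The place of Mdm2 at E14.5 came from a fit to a rate that was flat late in the chase. The 2 sites are printed 5′ to 3′ on the strand of the gene, with the nonamer in capitals and 10 flanking bases.
Mdm2: ggcattgatgTTATTTATTtgcaaataaa
Trp53inp1: acttccccttTTATTTATTtgttttctaa
The Mdm2 site is at chr10:117688915-117688943 on the minus strand and the Trp53inp1 site at chr4:11171739-11171767 on the plus strand, both on GRCm38. The shorter pentamer ATTTA, which the nonamer contains, occurred 5.99 times per kb in Mdm2, 3.45 in Ccng1, 2.999 in Cdkn1a, 2.51 in Perp, 1.83 in Pmaip1, 1.81 in Trp53inp1, 1.38 in Eda2r and 1.195 in Zmat3, beside a median of 1.14 over all genes. Bbc3 and Phlda3 held 0, and Phlda3 had the shortest mean half-life of the 8 genes at E14.5. Whether these letters act in these cells was not tested.

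The conversion rate at 0 h is the share of a gene's covered Ts that read as converted at the end of labelling. The library rate was 1.09%, 1.01% and 1.44% in pools A, B and C of E11.5, 1.09%, 1.18% and 1.03% in the E14.5 pools and 1.80%, 1.91% and 1.88% in the E16.5 pools. All libraries of E16.5 thus held more label than any earlier one, and gene rates were therefore compared relative to their library. Mdm2 was converted at 1.34% ± 0.08, 1.31% ± 0.11 and 2.05% ± 0.06 at the 3 stages (SD, n = 3). Between E14.5 and E16.5, 3 members had a lower relative rate by limma (12522 genes tested, 17.1% called), namely Ccng1 (log2 difference -0.33, adjusted p = 0.0059), Eda2r (-0.44, adjusted p = 0.0080) and Cdkn1a (-0.57, adjusted p = 0.040, and 0.018 to 0.12 over omissions of 1 pool). Their own rates still rose, for Ccng1 from 1.21% ± 0.13 to 1.62% ± 0.02, for Eda2r from 1.42% ± 0.15 to 1.78% ± 0.02 and for Cdkn1a from 1.64% ± 0.35 to 1.84% ± 0.14, less than the library. Between E11.5 and E16.5 only Ccng1 was called (-0.25, adjusted p = 0.021), where 17.4% of all genes were. Between E11.5 and E14.5, 0 members were called, where 0.192% of all genes were. In that comparison 3 members had an unadjusted p under 0.05, a limit at which the share of all genes is not given here. Ccng1's call between E11.5 and E16.5 was lost without pool A or B of E11.5 and without pool B or C of E16.5 (adjusted p up to 0.080), and without pool B of E11.5 Bbc3 was called higher in its place.

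Within each stage, the pool with the highest library label at 0 h also had the highest level of most of these genes. Pool C of E11.5 was highest for 9 of 10 genes by the mean of its 5 wells, and for 8 of them in all 5 wells. Its level relative to the mean of the other pools of its stage was 1.92-fold for Eda2r, 1.61-fold for Cdkn1a, 1.56-fold for Perp, 1.54-fold for Phlda3, 1.51-fold for Pmaip1, 1.49-fold for Ccng1, 1.28-fold for Bbc3 and Trp53inp1 and 1.15-fold for Zmat3. Mdm2 was the exception, at 1.00-fold. Pool B of E14.5 was highest for 8 genes by the mean of its wells and for 6 in all wells, with a median log2 ratio of 0.29, and pool B of E16.5 for 9 and 7 genes, with a median of 0.21 and 4.06-fold more Perp. At E16.5 the library rates lay close together, at 1.80%, 1.91% and 1.88% in pools A, B and C. Between stages the order was not the same throughout. E16.5, with the most label, had the lowest mean CPM at 0 h of Ccng1, Cdkn1a, Trp53inp1, Eda2r and Zmat3 and the highest of Bbc3. Mdm2 was nearly equal in mean CPM at E16.5 and E11.5 (80.3 and 81.5), and its fitted level at E16.5 was not below that at E11.5. E11.5 and E14.5 overlapped in label, and 8 of the 10 genes had a lower fitted level at E14.5. With 3 pools per stage this is a description, and the part of label uptake in these levels was not tested. The share of all genes that were highest in the same pools is not given here, so the counts do not set these genes apart from others.

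**Figure D5:**
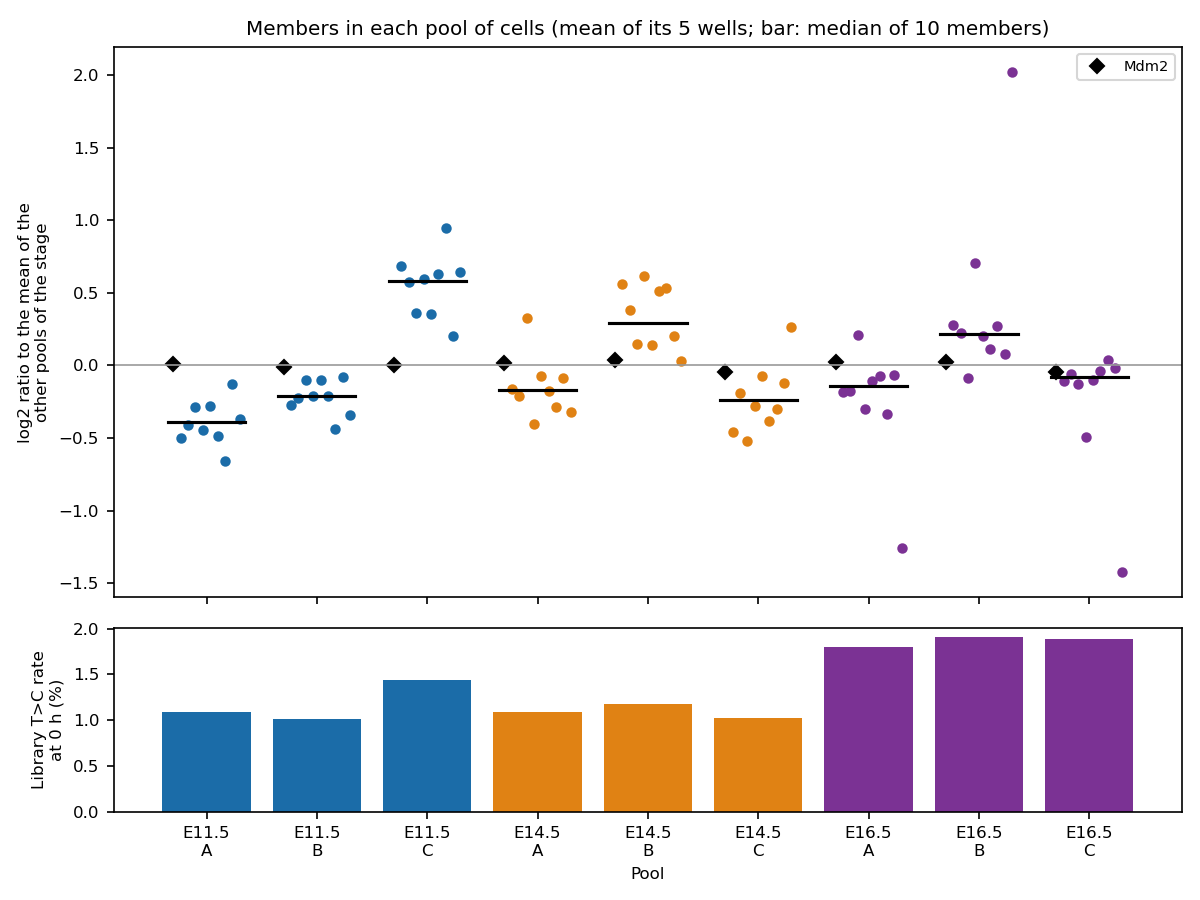
Upper axis: log2 ratio of each gene's level (TMM-scaled, mean of 5 wells) in a pool to the mean of the other pools of its stage, with 1 point per gene, Mdm2 as a diamond and the median of the 10 genes as a bar. Lower axis: T-to-C conversion rate of the library at 0 h in percent. The bar is at 0.58 in pool C of E11.5, 0.29 in pool B of E14.5 and 0.21 in pool B of E16.5, the pools with the highest bar of label in their stage, and Mdm2 stays near 0 in all 9 pools.

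Over the 15 groups of stage and chase time, the members themselves followed their common profile to unequal degrees. Pearson's r of a gene's group means (log2(CPM + 1)) with the mean z-scored profile of the 10 genes, which includes the gene itself, was 0.955 for Cdkn1a, 0.93 for Phlda3, 0.881 for Ccng1, 0.88 for Trp53inp1, 0.825 for Zmat3, 0.784 for Eda2r, 0.745 for Pmaip1, 0.581 for Mdm2, 0.105 for Perp and -0.601 for Bbc3. Of 14405 genes with a mean of at least 1 CPM, the 5 most alike outside the lists of p53 targets and regulators were Sap30 (0.975), Rprd1b (0.971), Zfp334 (0.969), Mthfd2l (0.968) and Gm4939 (0.967). On the CPM scale used here, the median gene at E11.5 shifted by -0.18 in log2 at 12 h against 0 h. The part of that shift in these correlations was not tested. The 5 groups of a stage share their pools, and these values are descriptions.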

How the data were processed

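Per the methods of the study, the authors mapped reads with SlamDunk (build mm10), and gene values are sums across GENCODE exons. They deposited, for each gene and library, the count of covered Ts (1 read adds as many as it covers Ts), the T-to-C conversion rate as a fraction of covered Ts (given here in percent), and reads in CPM. Deposited half-lives, fit quality and replicate means were not used. All CPM values (100% within 0.01 reads) were whole multiples of 1 read, and edgeR on these reads called 8314, 8728 and 10598 of 14611 genes between stages (E14.5 over E11.5, E16.5 over E14.5, E16.5 over E11.5). Columns without a matching library numbered 0.

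The quasi-likelihood test of edgeR 4.0.16 was run on covered-T counts with TMM scaling and over 10 counts in every library of the fit: the 9 libraries of 0 h, the 15 of a stage, or all 45. Half-lives were refitted as exp(-kx) to rates divided by the rate at 0 h, and kept with over 500 covered Ts, under 24 h and R2 over 0.6 in all 3 replicates. limma 3.58.1 tested z-scored half-lives and the log2 rate of a gene over that of its library. All p-values were adjusted over all genes (Benjamini-Hochberg). Wells of 1 pool deviated together (r of 0.15 to 0.67 over genes, except pool B of E11.5, from 0.049), so chase fits are also given with the pool as a block. Letters shared between stages mark different embryos (r of -0.14 to 0.15). DESeq2 1.42.0, limma on log2(CPM + 1), omitted pools and other filters served as alternatives, and the tests were first tried on simulated data. Named were all members, Trp53, Mdm4 and Ppm1d, at most 6 genes per list and comparison with an adjusted p under 0.05, over 2-fold and no overlap of pools, and the 5 genes most like the members; Chac1, Atf4 and Gm42418 were named after their values were seen. Sequences came from RefSeq (GRCm38.p6) for promoter windows and from the GENCODE annotation on GRCm38 for 3′ UTRs. The members and lists were chosen with earlier results of these data known.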

Additional observations from a re-analysis of the deposited data

Results flagged for a closer look

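The change of Mdm2 from 0 to 12 h of chase differed between E16.5 and E11.5 by -0.22 on the log2 scale in the interaction test (adjusted p = 0.046 by edgeR, 0.023 with the pools as a block). For 3 further genes all pools of one stage moved up over the chase and all pools of another moved down. The mean log2 ratio of 12 h to 0 h of Phlda3 differed by 0.60 between E14.5 and E11.5 (higher in the E14.5 pools) and by -0.61 between E16.5 and E14.5, and by 0.31 and -0.32 without pool C of E14.5. In the interaction test these differences had adjusted p = 0.42 and 0.56 without a block and 0.011 and 0.023 with it. Eda2r differed between E16.5 and E14.5 by -0.53 (adjusted p = 0.67, and 0.031 with the block) and Zmat3 by -0.39 (adjusted p = 0.23, and 0.013 with the block).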

How the results depend on the processing

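Over all alternatives, 162 counts of called members stayed within 1.5 times and 38 moved. Between stages at 0 h, the comparison of E14.5 with E11.5 called 3 members instead of 5 by limma on log2(CPM + 0.1), 2 in the 12 h libraries and 3 with the 5 wells of each pool summed, and that of E16.5 with E14.5 called 9 in the 12 h libraries and 7 with summed wells, instead of 4. With the replicate letter as a block across stages, where letters mark different embryos, the counts were 4, 5 and 6 at 0 h. The pool block within stages gave 2, 6 and 8 members in the chase and 2, 6 and 4 in the difference between stages. Half-lives in hours gave 4 members for E16.5 against E14.5, 3 against E11.5 and 5 over any stage, and log2 hours 5, 6 and 6, since the general shortening is then kept. The relative label of E16.5 against E11.5 was called for 2 members with over 2000 covered Ts or relative to the median gene, and for 0 with the letter as a block. Omitting 1 replicate gave 2 to 5, 3 to 6 and 5 to 8 members between stages (E14.5 over E11.5, E16.5 over E14.5, E16.5 over E11.5), 0 to 2, 0 to 1 and 3 to 4 in the chase (E11.5, E14.5, E16.5), 0 to 1 for the difference between E16.5 and E11.5 in the chase, 0 to 1 for half-lives over any stage and between E16.5 and E11.5, and 0 to 2 for the relative label of E16.5 against E11.5. Signs turned in the 12 h libraries for Phlda3 (E16.5 over E14.5, -0.53) and Mdm2 (E16.5 over E11.5, -0.19), without pool B of E16.5 for Perp (E16.5 over E11.5, -0.70 to 0.45 over all omissions), and for the half-life of Ccng1 (E16.5 over E14.5) in hours (-0.98) and log2 hours (-0.39); the causes were not tested. Subtracting a background of conversions shortened the half-lives, for Mdm2 to 2.37, 3.18 and 1.85 h. Depth limits Perp and Pmaip1 most.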
